A study of Mus musculus with 6 samples.

Results

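Chemokines are small secreted proteins, and 28 of their genes together with 12 genes of chemokine receptors were examined in mouse penile squamous cell carcinoma (PSCC). The 40 genes were taken from a list of symbols of the CC, CXC, CX3C and XC families, leaving out most of the neutrophil-attracting CXC ligands with their receptors, the atypical receptors and some further genes, and all 40 were found among the 24063 gene symbols of the count files. RNA sequencing of 3 SA tumors and 3 WT penises, each from a mouse 5 months old, was compared to learn which of them differ between the malignant and the normal tissue. SA mice carry a Cre recombinase driven by the androgen-responsive probasin promoter (PB-Cre+ in the labels, the PB-Cre4 line in the methods) and floxed alleles of Smad4 and Apc (Smad4L/L ApcL/L), and their tumors arose without a carcinogen. WT mice were C57BL/6 and carried none of these alleles, so the deletions, the Cre and the tumor state cannot be told apart in this design. The strain background of the SA colony is not given in the sources used here. Tumors were taken as whole fresh tissue, in which markers of stromal and immune cells were found, whereas the WT tissue was labelled as penile epithelium.

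A chemokine binds a seven-transmembrane receptor on a target cell, and the cell moves up the gradient of the ligand. Inflammatory CC ligands draw monocytes, macrophages and granulocytes from blood into tissue, homeostatic ligands place lymphocytes and dendritic cells in lymph nodes, skin and mucosa, and receptors are read mostly as the property of the arriving cell. Squamous epithelium itself makes some of these ligands, among them Cxcl14 and Ccl28.

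The gene rows of a library held from 23828283 to 110509147 counts, and the third SA library was the deepest, at 4.42 times the median of the other 5. The floor of 3 counts was therefore between 0.0244 and 0.137 CPM (counts scaled to a library of 1e+06). Counts of Smad4 were 36.6, 36.1 and 46.1 CPM in the 3 SA tumors and 61.2, 69.7 and 72.5 CPM in the 3 WT penises (log2 fold change -0.77, SE 0.128, edgeR adjusted p = 0.00114), and Apc was higher in SA tumors, at 253, 194 and 197 CPM against 62.5, 85.3 and 91.1 CPM (1.43, SE 0.168, adjusted p = 0.000185). A count over a whole transcript includes exons outside a floxed part, so the Apc value does not check the deletion. The 8 keratinocyte markers were abundant in every library, with 2.80% to 3.32% of the gene counts in SA tumors and 5.99% to 6.63% in WT penises, and 6 of them were lower in SA tumors at an adjusted p under 0.05. Muscle markers were present in the WT penises, at 1405 to 1857 CPM in sum against 39.8 to 120 CPM in SA tumors, so the WT tissue was not epithelium alone.

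Of the 40 genes, 31 had enough counts to be tested. With the study's thresholds (adjusted p under 0.01, and a log2 fold change of 2 or more in size), 9 of the 31 were upregulated in SA tumors and 2 were downregulated, where 9.41% and 3.59% of the 16336 genes tested were called in these directions. Upregulated were the ligands Cxcl14, Ccl2, Ccl3 and Ccl4 and the receptors Cxcr4, Ccr7, Ccr1, Ccr9 and Cx3cr1, and downregulated were the ligands Ccl24 and Ccl28. At an adjusted p under 0.05 with no threshold on the fold change, 13 were higher and 6 were lower, against 28.2% and 25.2% of all genes tested. DESeq2, run on all 40 genes, gave 19 and 8 at that threshold, with Ccl7, Ccl22 and Cxcl9 added to the higher and Ccl8 and Ccl9 to the lower genes of the 31. Outside the 31, it added Ccl20, Cxcl11 and Ccr3 to the higher genes. As a median, the log2 fold change was 0.84 over the 31 and 0.03 over all genes tested. Ligands and receptors differed in these counts, with 4 of 22 ligands tested and 5 of 9 receptors tested upregulated, a difference that was not itself tested. In these bulk samples, a change in the number of cells that carry a transcript and a change in its amount per cell cannot be told apart.

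**Figure D1:**
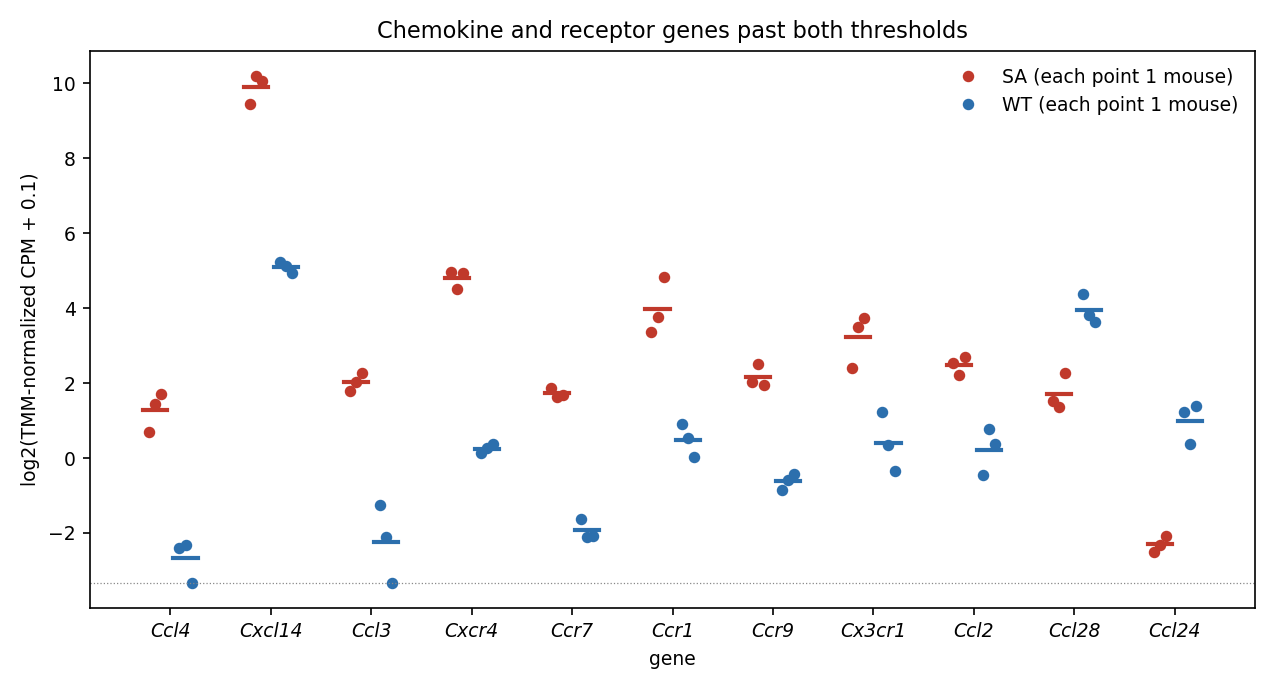
TMM-normalized CPM on a log2 scale, with 0.1 added, of the 11 genes past both thresholds, with 1 point for each of 3 SA tumors (red) and 3 WT penises (blue), a short line at the mean of the log values and a dotted line at a CPM of 0. For the 9 upregulated genes each SA point lies above each WT point, and for Ccl28 and Ccl24 each SA point lies below.

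The regions just before the start of 4 of these genes are shown because their transcripts changed and because the genes lie in different surroundings: Cxcr4 stands alone, Ccl3 and Ccr1 lie within groups of related genes, and Ccl28 fell. Each is the 250 bases before the RefSeq start (GRCm38.p6), read 5′ to 3′ on the strand of the gene, with capitals for a match to GAAANNGAA, the core of an interferon regulatory factor site.
Cxcr4, chr1:128592300-128592549, minus strand: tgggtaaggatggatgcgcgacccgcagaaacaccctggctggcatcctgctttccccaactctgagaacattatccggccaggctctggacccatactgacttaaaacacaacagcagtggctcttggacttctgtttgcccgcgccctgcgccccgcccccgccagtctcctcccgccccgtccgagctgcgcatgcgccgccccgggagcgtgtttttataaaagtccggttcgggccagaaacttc
Ccl3, chr11:83649379-83649628, minus strand: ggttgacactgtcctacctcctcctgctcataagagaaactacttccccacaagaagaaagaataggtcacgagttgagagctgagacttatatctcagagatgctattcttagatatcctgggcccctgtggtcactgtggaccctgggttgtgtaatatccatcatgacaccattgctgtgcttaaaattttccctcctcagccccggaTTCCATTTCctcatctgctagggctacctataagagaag
Ccr1, chr9:123968693-123968942, minus strand: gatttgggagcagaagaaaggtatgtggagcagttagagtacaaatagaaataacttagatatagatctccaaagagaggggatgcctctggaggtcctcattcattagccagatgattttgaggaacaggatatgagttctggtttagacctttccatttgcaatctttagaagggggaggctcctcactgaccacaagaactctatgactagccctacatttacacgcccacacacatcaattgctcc
Ccl28, chr13:119623569-119623818, plus strand: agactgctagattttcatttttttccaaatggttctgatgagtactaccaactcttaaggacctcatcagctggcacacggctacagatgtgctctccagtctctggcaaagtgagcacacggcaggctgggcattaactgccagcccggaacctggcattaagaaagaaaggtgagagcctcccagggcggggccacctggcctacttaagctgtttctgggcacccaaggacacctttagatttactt
Of these 4, only Ccl3 held a match, on the reverse strand and beginning 39 bases before the start. Among the RefSeq promoters, 29 of the 40 genes had an entry, with 31 promoters of 300 bases, and GAAANNGAA was found on either strand in 7 of the 31, those of Ccl1, Ccl3, Ccl19, Cxcl9, Cxcl10, Cxcl14 and Ccr2, and in 8.56% of all 32851 promoters. The NF-kB core GGANTTTCC was found in 2 of the 31 (Cxcl10 and Ccr3) and in 1.25% of all, and the TCF/LEF core CTTTGAT in 1 of the 31 (Cxcl12) and in 3.73% of all. These are matches of letters only.

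Cxcl14, a ligand made by normal squamous epithelium, was the most abundant of the 28 ligands in SA tumors. Its level was 702, 1170 and 1069 CPM in the SA tumors and 37.2, 34.7 and 30.3 CPM in the WT penises, with no overlap. The log2 fold change was 4.85 (SE 0.221, edgeR adjusted p = 2.26e-06), with a range of 4.70 to 5.03 over the fits that each left out a library. Compared per transcript length, Cxcl14 stood at 687, 1095 and 1067 TPM (transcripts per 1e+06, scaled by length) in SA tumors and at 26.1, 26.5 and 23.9 TPM in WT penises. It held 82.9% to 87.9% of the summed TPM of the 28 ligands in SA tumors and 13.6% to 17.1% in WT penises. The other 27 ligands summed to 120, 151 and 220 TPM in SA tumors and to 166, 128 and 127 TPM in WT penises, so without Cxcl14 the groups overlapped. The next ligands by mean TPM in SA tumors were Cxcl16 (21.3 ± 7.66), Ccl8 (20.7 ± 8.24), Cxcl12 (18.6 ± 8.90) and Ccl6 (17.0 ± 4.65), each as mean ± SD with n = 3, and their order is within their spread. In WT penises Ccl8 (35.4 ± 21.1 TPM) and Ccl6 (33.0 ± 1.88 TPM) came before Cxcl14 (25.5 ± 1.38 TPM), and Ccl8 did not differ from either beyond its spread.

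**Figure D2:**
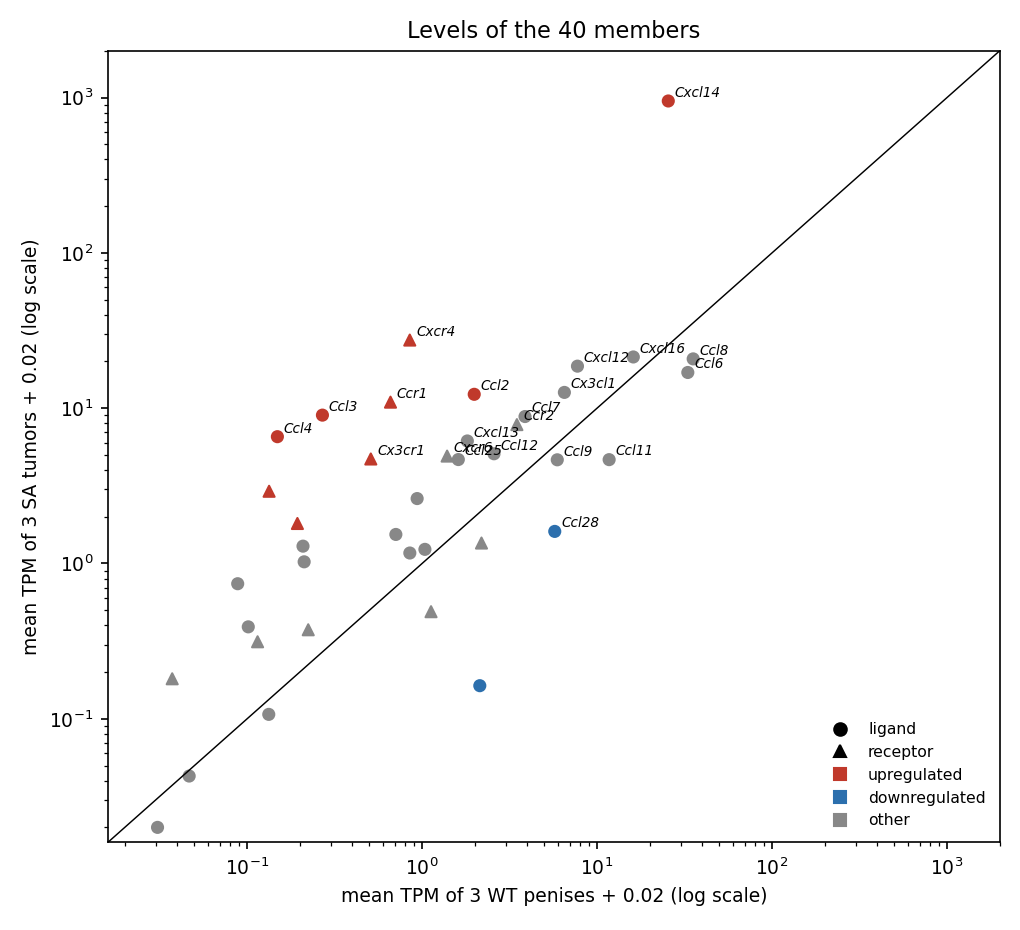
Mean deposited TPM of 3 SA tumors (vertical axis) against that of 3 WT penises (horizontal axis), both on log scales with 0.02 added, for the 28 ligands (circles) and 12 receptors (triangles), with the line of equal level. Cxcl14 lies far above every other ligand in SA tumors at 950 TPM, and Cxcr4 leads the receptors at 27.4 TPM.

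Among the 11 inflammatory CC ligands, all of which were tested, 3 rose and 1 fell past both thresholds (27.3% and 9.09%). Of all genes tested, 9.41% and 3.59% did. At an adjusted p under 0.05, 3 were higher and 3 were lower (27.3% each), near the 28.2% and 25.2% of all genes tested. Their median log2 fold change was 0.09. Ccl3 and Ccl4, known as macrophage inflammatory proteins, went from near the floor to a low but clear level. Ccl3 was at 3.34, 3.97 and 4.69 CPM in SA tumors and at 0.316, 0.134 and 0 CPM in WT penises (log2 fold change 4.73, SE 0.584, edgeR adjusted p = 0.000242). Ccl4 was at 1.52, 2.62 and 3.14 CPM against 0.0904, 0.1001 and 0 CPM (5.14, SE 0.602, adjusted p = 0.000181). For both, the third WT library held no count, and each SA tumor was above each WT penis. No WT library held more than 3 counts of Ccl4, so its fold change is measured against a level at the floor. RefSeq draws the span of Ccl4 across Ccl3, and whether the counting kept reads of the overlapping span apart by strand is not given in the sources used here. Ccl2, the main attractant of Ccr2-bearing monocytes, was at 5.69, 4.54 and 6.42 CPM in SA tumors and at 0.633, 1.602 and 1.19 CPM in WT penises. The groups did not overlap (2.26, SE 0.336, adjusted p = 0.000655), and without the first WT library, the lowest, the log2 fold change was 1.97, under the threshold.

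The relatives of Ccl2 did not move with it past the test. Ccl7, a further monocyte attractant, had a log2 fold change of 0.84 (95% interval 0.07 to 1.60, edgeR adjusted p = 0.0631) and Ccl12 one of 0.67 (-0.51 to 1.84, adjusted p = 0.303). Ccl8 was at 3.23, 7.25 and 7.46 CPM in SA tumors and at 23.8, 9.11 and 7.65 CPM in WT penises, where the first WT library stood well above the other two (-1.16, adjusted p = 0.0914). Without that library the value for Ccl8 was -0.49. Ccl5, an attractant of T cells and monocytes, was under 0.6 CPM in each library (0.09, 95% interval -1.58 to 1.76).

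Ccl6 and Ccl9, ligands of Ccr1 that rodents carry, were among the more abundant CC ligands of the WT penis. Ccl6 was at 9.59, 14.9 and 16.6 CPM in SA tumors and at 38.0, 31.7 and 34.1 CPM in WT penises. All SA values were lower, and the decrease passed the adjusted p but not the threshold on the fold change (-1.33, SE 0.199, edgeR adjusted p = 0.000696). Ccl9 was at 5.02, 8.94 and 9.61 CPM against 18.4, 10.2 and 10.8 CPM, without overlap but not past the test (-0.73, adjusted p = 0.0754).

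The eotaxins, which attract eosinophils through Ccr3, were both lower. Ccl24 was at 0.0743, 0.0993 and 0.138 CPM in SA tumors, with the first 2 at or under 3 counts, and at 2.26, 1.20 and 2.51 CPM in WT penises (log2 fold change -4.06, SE 0.444, edgeR adjusted p = 0.000123). Ccl11 was at 1.93, 2.38 and 4.06 CPM against 8.77, 9.58 and 9.07 CPM (-1.67, SE 0.280, adjusted p = 0.00122), and without the third SA library, its highest, it was at -2.08 and past both thresholds. Of 8 mast cell and eosinophil markers 4 were tested and none was past both thresholds, with summed levels of 22.3 to 73.7 CPM in SA tumors and 25.9 to 40.5 CPM in WT penises. The 4 tested were mast cell genes (Cpa3, Cma1, Mcpt4 and Tpsb2) and made up nearly all of these sums. The 4 eosinophil genes had too few counts to be tested. Of these, Siglecf was at 0.149, 0.331 and 0.699 CPM in SA tumors and at or under 0.0456 CPM in WT penises, whereas Epx, Prg2 and Il5ra overlapped.

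**Figure D3:**
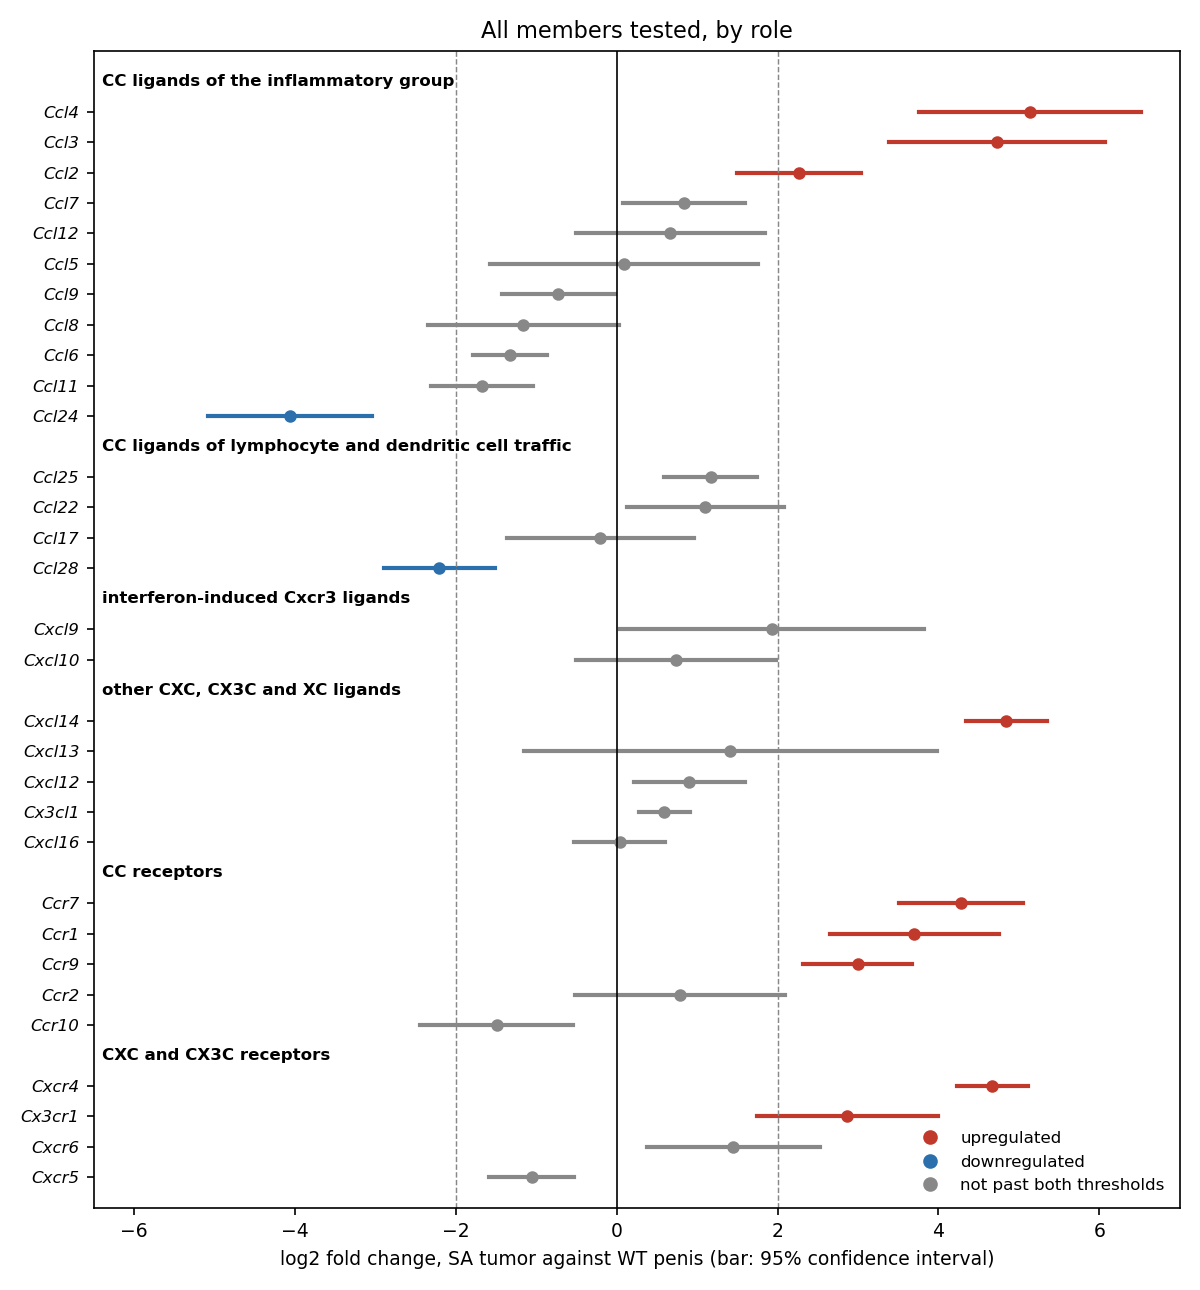
Log2 fold change (SA against WT) for the 31 genes tested, grouped by role, with 95% confidence intervals from 3 libraries a group, dashed lines at -2 and 2, red for upregulated, blue for downregulated and grey for genes not past both thresholds. The inflammatory CC ligands run from Ccl24 at -4.06 to Ccl4 at 5.14, and the interval of Cxcl13 is the widest.

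Of the 7 CC ligands that guide lymphocytes and dendritic cells, 4 were tested, none rose past both thresholds and 1 fell. Of all genes tested, 9.41% rose and 3.59% fell. Ccl28, an epithelial ligand of Ccr10 that is best known from mucosa, was at 2.79, 2.45 and 4.74 CPM in SA tumors and at 20.8, 14.1 and 12.4 CPM in WT penises. Each SA tumor was below each WT penis (log2 fold change -2.21, SE 0.302, edgeR adjusted p = 0.000443), and without the first WT library the value was -1.97. Its receptor Ccr10, found on skin- and mucosa-homing lymphocytes, was also lower, at 0.409, 0.265 and 0.682 CPM against 0.949, 1.44 and 1.73 CPM (-1.49, SE 0.414, adjusted p = 0.0156). Ccl25, the ligand of Ccr9 known from thymus and small intestine, was at 2.94, 3.21 and 2.39 CPM in SA tumors and at 1.36, 1.24 and 1.19 CPM in WT penises (1.17, SE 0.253, adjusted p = 0.00484). The row used for Ccl25 was a non-coding RefSeq transcript, and its coding row gave 1.10 (adjusted p = 0.0121). Ccl22 and Ccl17, ligands of Ccr4, had log2 fold changes of 1.10 (95% interval 0.12 to 2.09) and -0.21 (-1.37 to 0.96), neither past the test. Ccr4 itself, which was not among the 40 genes, rose by 3.85 on the log2 scale, from a mean of 0.0786 to 1.19 CPM (adjusted p = 0.000792).

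Ccl1, Ccl19 and Ccl20 were not tested. Ccl19, a ligand of Ccr7, had 0 counts in the 3 SA libraries together and 1 in the 3 WT libraries, and it has near-identical copies in the mouse genome, so its count is uncertain. Ccl1 had 19 counts against 2, a ratio per depth of 3.90 with a 95% counting interval of 0.941 to 34.6. Ccl20, the ligand of Ccr6, had a mean of 0.574 CPM in SA tumors and 0.106 CPM in WT penises. The groups overlapped only between the third SA tumor (0.260 CPM) and the third WT penis (0.273 CPM). With no filter the log2 fold change of Ccl20 was 2.42 (edgeR adjusted p = 0.0604), and DESeq2 gave 2.47 (adjusted p = 0.0405).

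Cxcl9 and Cxcl10, which interferon induces and which draw Cxcr3-bearing T cells, were both low and neither passed the test. Cxcl9 was at 2.27, 0.596 and 2.02 CPM in SA tumors and at 0.543, 0.701 and 0 CPM in WT penises (log2 fold change 1.93, SE 0.813, edgeR adjusted p = 0.0798), and the second SA tumor was within the WT range. Cxcl10 had a log2 fold change of 0.74 (95% interval -0.50 to 1.98). Cxcl11, in which C57BL/6 mice carry a frameshift, was at 0.892, 0.0993 and 0.934 CPM in SA tumors and at or below 0.1001 CPM in WT penises, and did not pass the filter. With no filter its edgeR value was 2.99 (adjusted p = 0.0153). Their receptor Cxcr3 was not tested, with means of 0.319 CPM in SA tumors and 0.237 CPM in WT penises. Of 16 genes of the interferon response 15 were tested, 0 rose past both thresholds (at an adjusted p under 0.05, 1 was higher and 3 were lower), and Ifit3 fell (-2.26). Of 10 genes linked to NF-kB, 3 rose past both thresholds (Il1b, Tnf and Il6) and 0 fell, while at an adjusted p under 0.05 4 were higher and 3 were lower. For both lists, the shares over all genes tested were 9.41% and 3.59% past both thresholds. At an adjusted p under 0.05 they were 28.2% higher and 25.2% lower.

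Of the other 7 CXC, CX3C and XC ligands, 5 were tested, and beside Cxcl14 none was past both thresholds. Cx3cl1, a membrane-tethered ligand, was at 24.1, 21.1 and 21.8 CPM in SA tumors and at 14.2, 13.1 and 17.1 CPM in WT penises, higher in each SA tumor by a small amount (log2 fold change 0.59, SE 0.138, edgeR adjusted p = 0.00678). Cxcl16, the membrane-tethered ligand of Cxcr6, was at 18.4, 31.2 and 38.6 CPM against 31.8, 28.8 and 25.8 CPM, and the groups overlapped (0.04, 95% interval -0.53 to 0.60). Cxcl13, the B cell ligand of Cxcr5, was high in the third SA tumor alone, at 10.1 CPM beside 0.557 and 1.13 CPM, with 2.44, 1.30 and 0.911 CPM in WT penises. Its log2 fold change of 1.41 (adjusted p = 0.306) became -0.86 without that tumor. Cxcl15 had 7 counts in SA and 3 in WT libraries (ratio per depth 0.958, 95% counting interval 0.219 to 5.74), and Xcl1 had 6 and 3 (0.821, 0.175 to 5.08).

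Cxcl12, the stromal ligand of Cxcr4, was at 43.4, 44.0 and 89.8 CPM in SA tumors and at 28.3, 30.3 and 36.4 CPM in WT penises. Each SA tumor was above each WT penis, and the third SA tumor was the highest (log2 fold change 0.90, SE 0.293, edgeR adjusted p = 0.0341). Without the third SA library the value was 0.47 (adjusted p = 0.0201), and leaving out any 1 WT library put the adjusted p between 0.0692 and 0.120. With no filter on low counts the adjusted p was 0.0567, and with the transcript rows summed the value was 0.47 (adjusted p = 0.236). The files gave 3 transcript rows for Cxcl12, and their values differed. The row used, NM_001012477, and the row NM_013655 gave 0.91 each in a test of all 24346 transcript rows (adjusted p = 0.0295 and 0.0272). The row NM_021704 was at 14.2, 40.4 and 63.4 CPM in SA tumors and at 45.7, 51.5 and 47.2 CPM in WT penises (-0.28, SE 0.477, adjusted p = 0.655). In GENCODE M21 (GRCm38) these 3 transcripts on chromosome 6 share the end of exon 1, exon 2 and the start of exon 3, but NM_021704 ends in a longer exon 3 (chr6:117173492-117175069), whereas the others go on to an exon 4 (chr6:117176086-117181367 and chr6:117178583-117181366). The ratio of NM_021704 to NM_001012477 was 0.326, 0.918 and 0.706 in SA tumors and 1.62, 1.70 and 1.30 in WT penises, lower in each SA tumor. The mean difference of the log2 ratio was -1.36, and an exact two-sided permutation test gave p = 0.10, the smallest that 3 against 3 libraries allow. Reads of the shared exons may be counted in each row, so the ratio is not a ratio of molecules.

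**Figure D4:**
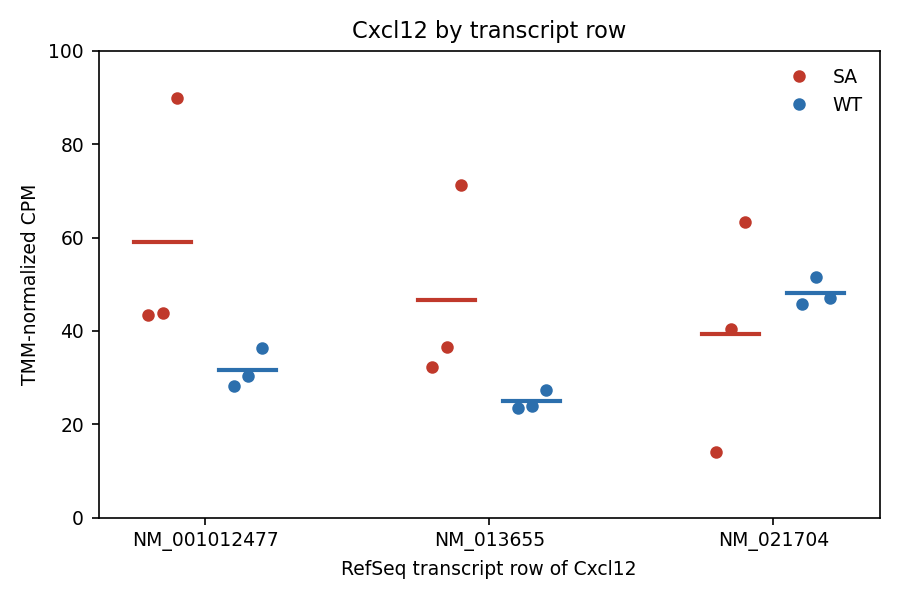
TMM-normalized CPM of the 3 RefSeq transcript rows of Cxcl12, with 1 point for each of 3 SA tumors (red) and 3 WT penises (blue) and a line at the mean. SA points lie above WT points for NM_001012477 and NM_013655, whereas for NM_021704 the SA points run from 14.2 to 63.4 CPM around the WT values of 45.7 to 51.5 CPM.

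Cxcr4, the receptor of Cxcl12 that blood leukocytes and many carcinoma cells carry, had the smallest error of all receptors tested. It was at 30.9, 22.6 and 30.3 CPM in SA tumors and at 0.995, 1.10 and 1.19 CPM in WT penises (log2 fold change 4.67, SE 0.194, edgeR adjusted p = 1.9e-06). The spread within each group was far smaller than the distance between the groups, and with a library left out the value ran from 4.59 to 4.80. Cxcr4 held 35.6% to 58.5% of the summed TPM of the 12 receptors in SA tumors and 5.88% to 10.4% in WT penises. The other 11 receptors summed to 21.6, 30.2 and 55.0 TPM in SA tumors and to 11.2, 10.1 and 8.15 TPM in WT penises, so they too were higher without overlap. Ackr3, an atypical receptor that binds Cxcl12 and removes it, and which was not among the 40 genes, was at 12, 16.2 and 15.2 CPM in SA tumors and at 51.5, 60.1 and 72.0 CPM in WT penises (-2.08, adjusted p = 2.26e-05).

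Of the 7 CC receptors, 5 were tested and 3 rose past both thresholds, where 9.41% of all genes tested rose. Ccr7, which takes dendritic cells and naive T cells to lymph nodes, was at 3.57, 3.01 and 3.09 CPM in SA tumors and at 0.226, 0.134 and 0.137 CPM in WT penises (log2 fold change 4.28, SE 0.338, edgeR adjusted p = 2.25e-05). The WT libraries held 5, 4 and 3 counts of Ccr7, so its fold change is measured against a level near the floor. Ccr9, the receptor of Ccl25, was at 4.01, 5.60 and 3.74 CPM against 0.452, 0.568 and 0.638 CPM (3.00, SE 0.298, adjusted p = 7.44e-05). Both were steady among the SA tumors, with the highest at 1.18 times the lowest for Ccr7 and 1.50 times for Ccr9. Ccr1, a receptor of Ccl3, Ccl6 and Ccl9 on myeloid cells, was at 10.1, 13.5 and 28.2 CPM in SA tumors and at 1.76, 1.34 and 0.911 CPM in WT penises, with no overlap and a wide spread among the tumors (3.70, SE 0.452, adjusted p = 0.000329). Ccr2, the monocyte receptor of Ccl2, was at 6.54, 12.7 and 27.8 CPM against 12.6, 9.21 and 5.74 CPM, and the groups overlapped (0.79, 95% interval -0.51 to 2.09, adjusted p = 0.263). Ccr3, the eotaxin receptor, was under the filter, with 71 counts in SA and 3 in WT libraries (ratio per depth 9.72, 95% counting interval 3.19 to 48.3). Of the 71 counts, 60 were in the third SA library, and the interval leaves out the spread between mice. Per library it was at 0.260, 0.132 and 0.487 CPM in SA tumors and at or under 0.0456 CPM in WT penises. With no filter its log2 fold change was 2.89 (edgeR adjusted p = 0.0125), and DESeq2 gave 2.87 (adjusted p = 0.0439). This direction was opposite to that of its ligands Ccl11 and Ccl24. Ccr6 was under the filter too, with means of 0.288 and 0.123 CPM.

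Of the 5 CXC and CX3C receptors, 4 were tested. Cx3cr1, the fractalkine receptor of monocytes and macrophages, was at 5.20, 11.2 and 13.3 CPM in SA tumors and at 2.26, 1.17 and 0.683 CPM in WT penises (log2 fold change 2.87, SE 0.486, edgeR adjusted p = 0.00159). The groups did not overlap, but without the second WT library the adjusted p was 0.0132, over the threshold. Cxcr6, the receptor of Cxcl16 on T cells, was at 2.86, 4.20 and 8.49 CPM against 2.62, 2.14 and 1.00 CPM (1.45, SE 0.471, adjusted p = 0.0303), and without the third SA library, the highest, it was at 0.88 (adjusted p = 0.0915). Cxcr5, the B cell receptor of Cxcl13, was lower in each SA tumor, at 1.56, 2.22 and 2.13 CPM against 4.34, 3.91 and 4.15 CPM (-1.06, SE 0.230, adjusted p = 0.00489).

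Set side by side, receptors and their ligands did not change as pairs of 1 kind. Ccr9 with Ccl25 and Cx3cr1 with Cx3cl1 were each higher at an adjusted p under 0.05, the receptor by 3.00 and 2.87 on the log2 scale and the ligand by 1.17 and 0.59. Beside Cxcr4 (4.67), Cxcl12 was higher in the row used (0.90) but did not pass with its rows summed (0.47, edgeR adjusted p = 0.236). Ccr10 and Ccl28 were both lower, by -1.49 and -2.21. For Ccr1 (3.70), Ccl3 was higher (4.73) and Ccl6 was lower (-1.33). Ccl2 was higher (2.26) while its receptor Ccr2 did not pass the test (0.79). Ccr7 was higher (4.28), but Ccl19, with 0 counts in SA tumors, has an uncertain count and gives no reading of the ligand side. The deposited counts do not say which cells carried a ligand and which its receptor.

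Markers of immune cells moved with several of these genes, and their part in the results was not tested. Among the 9 upregulated genes, the third SA tumor was the highest and the first the lowest for Ccr1, Cx3cr1, Ccl3 and Ccl4, as for Ccr2 and Cxcr6 and for the pan-leukocyte gene Ptprc, which was at 12.2, 19.5 and 41.1 CPM in SA tumors and at 9.86, 7.34 and 7.06 CPM in WT penises. This order was not particular to immune cell markers. Each of the 6 fibroblast markers had it too, with Pdgfra at 77.9, 174 and 267 CPM in SA tumors, which differed 3.43 times. From the lowest to the highest SA tumor, Ptprc differed 3.37 times, Ccr2 4.25 times, Ccr1 2.79 times, Cxcr6 2.97 times, Cx3cr1 2.56 times and Ccl4 2.06 times, while Cxcr4 differed 1.36 times, Ccl2 1.42 times, Ccl3 1.40 times and Cxcl14 1.67 times. The 5 pan-leukocyte markers summed to 68.0 to 197 CPM in SA tumors and 47.3 to 73.9 CPM in WT penises, 0 of 5 past both thresholds (3 higher at an adjusted p under 0.05). Beside this and the marker counts that follow, 9.41% of all genes tested rose and 3.59% fell past both thresholds. At an adjusted p under 0.05, 28.2% of all genes tested were higher and 25.2% lower. The 9 macrophage markers summed to 271 to 476 CPM against 294 to 389 CPM, with 1 higher and 1 lower at an adjusted p under 0.05. Of 12 granulocyte markers 11 were in the files, 9 were tested and all 9 rose, with sums of 1444 to 2525 CPM against 56.4 to 120 CPM. Most of these sums came from S100a8 (means of 783 and 46.0 CPM in SA and WT) and S100a9 (1049 and 36.1 CPM). Csf3r was far lower, with means of 37.0 and 1.53 CPM. The 2 not tested, Ngp and Camp, were at or under 0.26 CPM in each library. Of 8 T cell markers tested 2 rose (Cd5 and Lck), with sums of 41.8 to 44.4 CPM against 15.5 to 22.2 CPM. Most of these sums came from Cd5 (means of 20.1 and 2.89 CPM in SA and WT) and Foxp3 (10.1 CPM in both). For Cd3d, Cd3e, Cd3g, Cd2 and Cd4 the groups overlapped, and none passed an adjusted p of 0.05. Of 7 dendritic and Langerhans cell markers 1 rose and 1 fell (15.8 to 35.5 CPM against 9.61 to 18.6 CPM). Of 5 B cell markers 2 were tested and 1 rose (1.34 to 3.82 CPM against 1.05 to 1.31 CPM). The 6 fibroblast markers were at 1121 to 3464 CPM against 3770 to 4105 CPM and the 5 endothelial markers at 128 to 196 CPM against 213 to 270 CPM, with 0 of either list past both thresholds. At an adjusted p under 0.05, 1 fibroblast marker was higher and 1 lower, and 3 endothelial markers were lower and 0 higher.

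Members that lie next to each other on a chromosome did not move as 1 block. Within 250 kb of a neighbour, 22 of the 40 genes formed 5 groups of 3 or more. On chromosome 11 (GRCm38, chr11:82035577-82179812), Ccl2 rose by 2.26 on the log2 scale while Ccl11 was at -1.67 and Ccl8 at -1.16. In the second group of chromosome 11 (chr11:83525778-83664683), Ccl3 and Ccl4 rose by 4.73 and 5.14 beside Ccl6 at -1.33, Ccl9 at -0.73 and Ccl5 at 0.09. On chromosome 9 (chr9:123767211-124109140), Ccr9 and Ccr1 rose, Cxcr6 was higher at an adjusted p under 0.05, Ccr2 did not pass the test, and Ccr3 was not tested. The groups on chromosome 5 (Cxcl9, Cxcl10 and Cxcl11) and chromosome 8 (Ccl22, Cx3cl1 and Ccl17) held no gene past both thresholds.

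**Figure D5:**
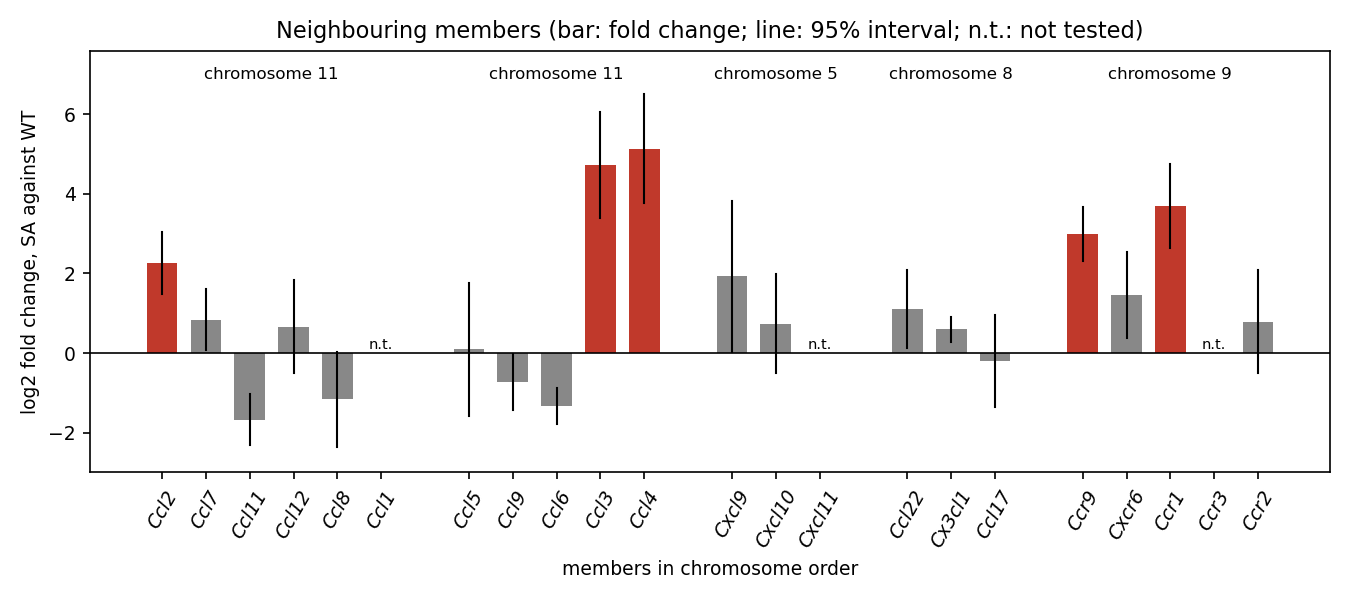
Log2 fold change (SA against WT, bars) with 95% confidence intervals (lines) for genes within 250 kb of a neighbour, in chromosome order, red for upregulated genes and grey for others. Ccl3 and Ccl4 stand above 4 next to Ccl6 below 0, and Ccr1 and Ccr9 flank Cxcr6.

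Of 19 further genes of the chemokine system, 15 were tested, 7 rose past both thresholds and 1, Ackr3, fell, against 9.41% and 3.59% of all genes tested. The 7 were the neutrophil attractants Cxcl1, Cxcl2, Cxcl3, Cxcl5 and Ppbp, their receptor Cxcr2, and Ccr4. Ackr1, the atypical receptor of venules that binds several of the CC ligands above, was at -1.38 (edgeR adjusted p = 0.000733).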

How the data were processed

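RNA from 3 SA tumors and 3 WT penises was made into stranded libraries and read from both ends. Per the methods, the authors used TopHat (mm10), FastQC and HTSeq, with versions not given in the sources used here. They deposited unnormalized counts for each RefSeq transcript beside its gene symbol. The deposited TPM values, which the authors scaled by transcript length and depth, served only to compare levels between genes, and the deposited FPKM values were not used. Of 33068 transcript rows, the row with the highest mean count stood for each of 24063 symbols. Rows of 1 gene share reads.

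The members and all gene lists were chosen with earlier results of these data known. Values of every sample are given for members past both thresholds or with a mean of at least 5 CPM in a group, and genes of other lists are named as receptors of a member ligand, as targeted genes, or, where they stand beside a count, after their values had been seen. Ccl27a is named as a ligand of a member receptor, also after its values had been seen.

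The fit used edgeR 4.0.16 (R 4.3.3): filterByExpr (at least 10 counts at the median depth, 0.380 CPM, in 3 samples and 15 in total), TMM normalization, and the robust quasi-likelihood F-test of SA tumors against WT penises and Benjamini-Hochberg adjusted p-values over 16336 genes. CPM values were TMM-normalized, and an SE is the absolute log2 fold change over the root of F. Ratios of low counts have exact binomial intervals, which cover counting error only, as does the floor of 3 counts. Log2 fold changes, intervals and n = 3 a group rest on separate mice. The biological coefficient of variation was 0.223 in SA tumors and 0.130 in WT penises. Replicate numbers were not treated as pairs, since same-numbered libraries did not deviate together (correlations of -0.135, -0.105 and 0.024). The methods were tested on simulated counts. Alternatives were DESeq2 (the tool of the authors, whose version is not given, here 1.42.0), limma-voom (limma 3.58.1), other scalings and filters, glmTreat, the sum of transcript rows, thinning of the deepest SA library, a replicate block and each library left out. A test of every transcript row was added after the data had been seen.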

Additional observations from a re-analysis of the deposited data

How the results depend on the processing

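The calls of the 31 genes tested were recomputed under 16 alternatives. DESeq2, limma-voom, RLE size factors, no filter and the sum of transcript rows each left the direction of all 31 and their side of the combined thresholds as they were, and DESeq2 called 10 upregulated genes among all 40, Cxcl11 included. At an adjusted p under 0.05, DESeq2 added Ccl7 (0.0421), Ccl22 (0.0287), Cxcl9 (0.0295), Ccl8 (0.0114) and Ccl9 (0.0295), limma-voom added Ccl22 (0.0384), library totals only added Ccl7 (0.0221), Ccl22 (0.0226) and Cxcl9 (0.0453), and Cxcl12 was lost with no filter (0.0567) and with summed rows (0.236). Outside the 31, DESeq2 added Ccl20 (0.0405), Cxcl11 (0.00897) and Ccr3 (0.0439), and no filter added Cxcl11 (0.0153) and Ccr3 (0.0125). The glmTreat test against a log2 fold change of 2, a stricter question, gave 5 upregulated genes (Ccl3, Ccl4, Cxcl14, Ccr7 and Cxcr4) and 1 downregulated gene (Ccl24), with an adjusted p of 0.0110 for Ccr1, 0.0152 for Ccr9, 0.159 for Cx3cr1, 0.717 for Ccl2 and 0.820 for Ccl28. With library totals only, the median of all genes moved to 0.31, 1 downregulated gene was left (Ccl24, with Ccl28 lost at -1.91), and Ccl17 turned to 0.0849; with no filter that median was 0.11. A filter at a mean of 50 counts left 26 genes to test and 1 downregulated, since Ccl24 was not among them. When each library was left out, 8 to 10 genes were upregulated and 1 to 4 downregulated, 12 to 17 were higher and 5 to 6 lower at an adjusted p under 0.05, and the median ran from 0.47 to 1.14. The 4 downregulated genes came without the third SA library, with Ccl11 (-2.08) and Ccr10 (-2.02) added, and the 1 came without the first WT library.

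Apart from Cxcl12, values that changed sign belonged to genes that had not passed the test: with the third SA library thinned, Ccl5 (-0.0493) and Cxcl16 (-0.0037), and, with a library left out, Ccl5 (-0.48 to 0.64), Ccl17 (-0.47 to 0.41), Cxcl13 (-0.86 to 1.90) and Cxcl16 (-0.21 to 0.27). Cxcl12 had passed an adjusted p of 0.05 in the row used (edgeR adjusted p = 0.0341), and its sign changed in the transcript row NM_021704 (-0.28). At an adjusted p under 0.05, Cxcl12, Cxcr6 and Ccr10 passed in 3, 2 and 5 of the 6 fits with a library left out, and Ccl7, Ccl12, Ccl22, Cxcl9, Cxcl10 and Ccr2 each passed in 1. The cause of these changes was not tested. With the replicate block, 8 genes were upregulated and 2 downregulated, Cx3cr1 was over the threshold (2.85, adjusted p = 0.0129), Cxcl16 was at -0.0218, Cxcr6 no longer passed an adjusted p of 0.05 (1.34, adjusted p = 0.103), and no other call at either threshold changed. Levels under 0.137 CPM were within the floor of the shallowest library, which limits Ccl1, Ccl4, Ccl19, Cxcl11, Cxcl15, Xcl1 and Ccr3 in all WT penises and Ccl24 in the first 2 SA tumors.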
